A study of Mus musculus with 12 samples.

Results

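Activator protein 1 (AP-1) and its stress-induced relatives were followed through 10 genes of the mouse genome, namely Fos, Fosb, Fosl1, Fosl2, Jun, Junb, Jund, Atf3, Maff and Batf. They were taken from the deposited count table by their gene symbols, and all 10 of 10 were found among its 39756 genes. The rule reads symbols alone, although results of these data were known when the list was drawn up. Of these, 9 had enough counts for the test across genes. Batf did not, and its counts are given separately.

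The ischemic hemispheres of 12 mice, 4 in each of 3 groups, gave 1 RNA library each. The animals were male C57BL/6J mice aged 9 to 10 weeks. The Vehicle and LJP groups had a transient occlusion of the middle cerebral artery (tMCAO). A filament closed this artery, which feeds most of a hemisphere, for 45 min and was then withdrawn so that blood returned. LJP, a sulfated polysaccharide of the brown seaweed Laminaria japonica, was given into the stomach every day for 14 days before surgery and was continued afterwards. Sham mice had a sham operation, and both Sham and Vehicle mice received saline in place of LJP. The labels do not give the LJP dose or the time between reperfusion and sampling. The study's text chooses the middle of its 3 doses for the work after its dose comparison, without naming the sequenced mice, and the labels put all 12 mice in 1 batch. Each library is a whole hemisphere holding neurons, glia, vessels and any blood cells that entered, so fewer cells of a type and less RNA per cell cannot be told apart.

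AP-1 is a pair of leucine zipper proteins that grip DNA together. Fos family proteins bind DNA only with a partner, usually from the Jun family, while Jun proteins also pair among themselves. Stress kinases and growth signals switch many of these genes on within minutes, and several of them, Atf3 above all, are widely used as marks of injured neurons and activated glia. Atf3 is related to the CREB family and often represses its targets, Maff is a small Maf protein without an activating domain that partners factors such as NRF2, and Batf pairs with Jun proteins in immune cells.

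The 250 bases before the start of transcription are shown for the 4 members on which the results turn or which stand as their contrast, as RefSeq gives them for GRCm38.p6, 5′ to 3′ on the strand of the gene. Atf3 and Maff had the largest fitted differences after ischemia, Jun had groups that separated in both comparisons with Vehicle mice, and Fos passed the test in no comparison. Capitals mark the motif found. The Atf3 stretch is chr1:191183334-191183583 on the minus strand, and its capitals are a site of the cAMP response element type, TTACGTCA, from 10 to 3 bases before the start. The Maff stretch is chr15:79347270-79347519 on the plus strand and lies before the second of 3 annotated starts, with TGACGTCA from 29 to 22 bases before it. None of the motifs was found before the first start, and TGACATCA was found from 45 to 38 bases before the third. The Jun stretch is chr4:95052223-95052472 on the minus strand, with TGACATCA, an 8-base form of the AP-1 site, from 45 to 38 bases before the start. The Fos stretch is chr12:85473640-85473889 on the plus strand, with a TATA box (TATAAA) from 33 to 28 bases before the start.
Atf3: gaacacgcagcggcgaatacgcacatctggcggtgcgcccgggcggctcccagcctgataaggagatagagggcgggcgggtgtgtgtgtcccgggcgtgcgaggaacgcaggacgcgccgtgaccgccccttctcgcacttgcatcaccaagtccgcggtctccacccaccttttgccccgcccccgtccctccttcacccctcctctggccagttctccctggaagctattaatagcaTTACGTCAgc
Maff: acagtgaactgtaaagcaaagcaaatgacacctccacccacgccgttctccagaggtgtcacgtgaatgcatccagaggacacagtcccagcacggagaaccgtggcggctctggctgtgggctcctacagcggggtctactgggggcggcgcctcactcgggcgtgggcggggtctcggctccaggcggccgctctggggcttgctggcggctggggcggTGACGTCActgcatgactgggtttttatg
Jun: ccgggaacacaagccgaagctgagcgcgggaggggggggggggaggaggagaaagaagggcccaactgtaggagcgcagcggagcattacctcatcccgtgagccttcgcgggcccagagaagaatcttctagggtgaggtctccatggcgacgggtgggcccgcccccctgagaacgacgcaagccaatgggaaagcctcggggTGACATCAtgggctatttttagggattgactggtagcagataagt
Fos: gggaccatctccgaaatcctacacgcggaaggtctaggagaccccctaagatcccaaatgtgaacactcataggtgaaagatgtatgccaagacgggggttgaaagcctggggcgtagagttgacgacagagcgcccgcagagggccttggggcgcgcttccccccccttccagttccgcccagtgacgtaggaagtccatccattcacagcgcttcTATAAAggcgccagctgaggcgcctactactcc
The motifs searched on both strands were the AP-1 core TGANTCA, its longer form TGACNTCA, the cAMP response element form TNACGTCA, the TATA box, the STAT form TTCNNNGAA and the CArG box, which serum response factor binds. TGACGTCA counts under both TGACNTCA and TNACGTCA. Of the 32851 mouse promoter stretches of the same length, 7.49% held TGACNTCA, 2.52% held TNACGTCA, 6.75% held the AP-1 core, 12.4% held the TATA box, 7.02% held the STAT form and 1.47% held the CArG box. RefSeq stretches were at hand for 9 of the 10 members, in 11 windows, with none for Fosl1. Those of Fosb, Fosl2, Junb, Jund and Batf held none of the motifs, and a match describes letters only. For Junb and Jund the bases after the window were not found in the annotated transcripts, so these windows may not end at a transcript start.

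Total counts per mouse lay between 17960353 and 22216315, and 3 reads, taken as the most that no observed read can hide, equalled 0.129 to 0.173 CPM, the reads of a gene scaled to a library of fixed size. Levels are in CPM after TMM scaling, which corrects library sizes for a few very abundant genes, and SE is the standard error of a log2 fold change. Comparisons used edgeR's quasi-likelihood test on 17558 genes with Benjamini-Hochberg adjustment, and a gene was called at an adjusted p below 0.05. Groups of mice were compared within 1 fit of all 12 libraries. Within the Vehicle group, mice 1 and 2 stood apart from mice 3 and 4. For the 9 tested members, Vehicle mouse 1 was among the 2 highest Vehicle mice 9 times and mouse 2 did so 8 times, whereas mouse 4 was the lowest 7 times.

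The same mice stood apart in markers of some other cells, though not of all. The summed level of 8 neutrophil markers was 165.5, 40.5, 0.754 and 5.55 CPM in Vehicle mice 1 to 4, against 0.272 to 0.519 in Sham and 0.307 to 1.12 in LJP mice, where 3 to 6 of the 8 genes were at 0. The 8 monocyte and macrophage markers summed to 227.7, 417.5, 70.6 and 125.8 CPM in Vehicle mice 1 to 4, against 16.3 to 25.0 in Sham and 28.1 to 107.4 in LJP mice. The 5 endothelial markers summed to 618, 1294, 251.4 and 312.5 CPM, against 171.2 to 186.8 in Sham and 165.8 to 226.4 in LJP mice. Thus mice 1 and 2 had the highest neutrophil, macrophage and endothelial sums of the 12. The 5 striatal neuron markers summed to 797.7, 188.9, 716.7 and 535.9 CPM in Vehicle mice 1 to 4, below the 1823 to 2148 of Sham mice. The 8 neuron markers, which check the tissue label, were abundant in all 12 mice, but their sum of 5183, 3807, 5960 and 5718 CPM in Vehicle mice 1 to 4 lay below the Sham range of 6079 to 6727, with LJP mice at 5716 to 6800. Of these 8 markers, edgeR called 3 lower and 0 higher in Vehicle mice, with a median log2 fold change of -0.45. The 4 choroid plexus markers followed the same split in the other direction, at 11.2, 16.7, 501 and 458.2 CPM in Vehicle mice 1 to 4. They were also low in Sham mouse 1, the lowest Sham mouse for 8 of the 9 tested members, at 20.5 CPM against 410.9 to 865 in the other Sham mice, and LJP mice were at 11.4 to 364.2. The neutrophil, macrophage, endothelial, neuron and choroid plexus sums thus set Vehicle mice 1 and 2 apart from mice 3 and 4. The striatal sum did not, being highest in mouse 1 and lowest in mouse 2. Microglia markers summed to 410.7, 729.5, 783.2 and 819.2 CPM in Vehicle mice 1 to 4, and astrocyte markers to 2766, 4179, 3310 and 3777 CPM. These did not follow the split either. What part any of these sums had in the results below was not tested.

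**Figure D1:**
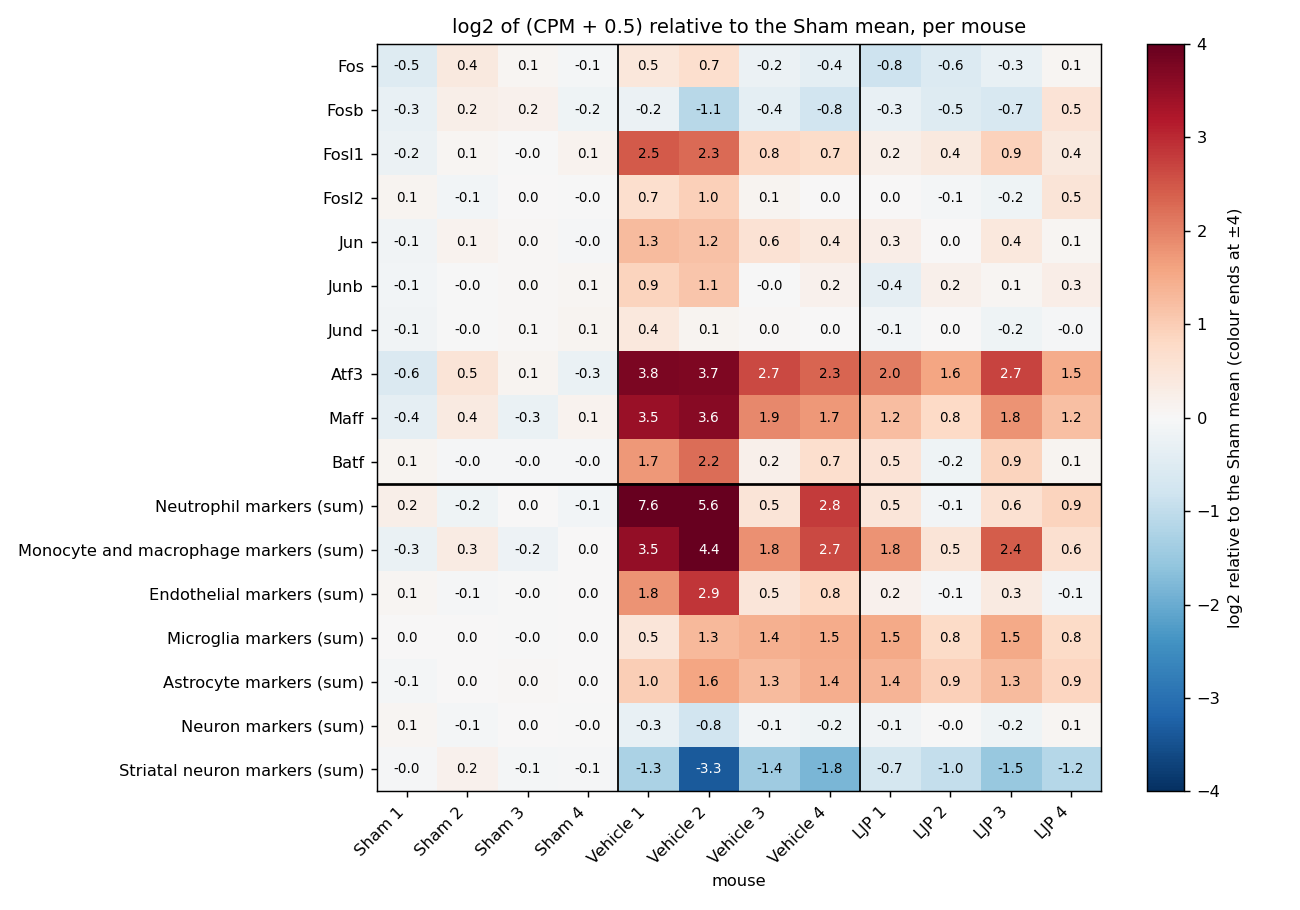
Log2 of CPM + 0.5 in each mouse relative to the Sham mean, for the 10 members and the summed markers of 7 cell types, with 1 column per mouse and numbers printed in the cells; colours end at 4 in either direction. Vehicle mice 1 and 2 are the most red for Atf3, Maff, Fosl1, Jun and Batf and also for the neutrophil, monocyte and endothelial sums.

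The first comparison asks what ischemia with saline treatment did to these genes. Atf3, Maff, Fosl1 and Jun were higher in every Vehicle mouse than in any Sham mouse, and Junb was higher on average. Of the 9 tested members, 5 were called higher and 0 lower by edgeR, while 22.7% of all genes tested were called higher and 17.3% lower. An unadjusted p below 0.05 was found for 7 of the 9 and for 49.9% of all genes. Of all genes tested, 20.7% were higher in every Vehicle mouse than in any Sham mouse, as 4 of the 9 members were. Fos, Fosb, Fosl2 and Jund did not pass, so the best known member of the family was not among those that rose. The median log2 fold change over the 9 members was 0.62, against 0 over all genes tested. By DESeq2, 6 of the 9 were called higher and 0 lower, Fosl2 being added, where 23.9% of all genes were called higher. At the thresholds of the study's methods (unadjusted p below 0.01 and an absolute log2 fold change over 0.58) it was 4, where 15.3% were, and with the replicate number as a block it was 4, where 19.7% were.

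Atf3 (Entrez Gene 11910, chromosome 1 from 191170296 to 191183333 of GRCm38) had 6, 24, 16 and 11 reads in Sham mice 1 to 4, or 0.346, 1.31, 0.877 and 0.570 CPM. In Vehicle mice 1 to 4 it had 370, 387, 140 and 110 reads, or 16.8, 16.6, 7.54 and 5.93 CPM. Every Vehicle mouse lay above every Sham mouse, with mice 1 and 2 at more than double the level of mice 3 and 4. The mean rose from 0.775 ± 0.416 CPM (SD, n = 4) to 11.7 ± 5.80 (SD, n = 4), and the fitted log2 fold change was 3.91 (SE 0.49, edgeR adjusted p = 0.000206). Measured against the Sham mean, the Vehicle mice stood at 21.7, 21.5, 9.72 and 7.65 times that level. Leaving out any mouse kept the log2 fold change between 3.67 and 4.27.

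Maff (Entrez Gene 17133, chromosome 15 from 79346621 to 79359078) was at 1.90, 3.43, 2.03 and 2.90 CPM in Sham mice 1 to 4. In Vehicle mice 1 to 4 it reached 33.3, 37.6, 11.0 and 9.75 CPM. As for Atf3, the groups did not overlap and mice 1 and 2 were the high pair. The mean rose from 2.57 ± 0.729 CPM (SD, n = 4) to 22.9 ± 14.6 (SD, n = 4), with a log2 fold change of 3.16 (SE 0.45, edgeR adjusted p = 0.000443).

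Fosl1 (Entrez Gene 14283, chromosome 19 from 5447698 to 5455938), which encodes the Fos relative FRA-1, was at 3.86, 4.85, 4.49 and 5.13 CPM in Sham mice 1 to 4. Vehicle mice 1 to 4 were at 27.3, 23.9, 8.45 and 7.87 CPM. The 4 Vehicle mice lay above the 4 Sham mice, at 5.96, 5.21, 1.84 and 1.72 times the Sham mean. The log2 fold change was 1.88 (SE 0.38, edgeR adjusted p = 0.00257), from a Sham mean of 4.58 ± 0.547 CPM (SD, n = 4) to a Vehicle mean of 16.9 ± 10.2 (SD, n = 4). Fosl1 overlaps Ccdc85b on the opposite strand, and 1163 bases, 62.4% of its exon bases in the annotation, lie in Ccdc85b exons. Ccdc85b had 2655 to 5603 reads per mouse, far more than the 67 to 602 of Fosl1. Because the sources used here do not say whether strand was used in counting, reads of the 2 genes cannot be told apart. Ccdc85b itself was higher in Vehicle mice by a log2 fold change of 0.30 (SE 0.11, edgeR adjusted p = 0.0481).

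The Jun family differed in size rather than in sign. Jun (Entrez Gene 16476, chromosome 4 from 95049036 to 95052222), the main target of the JNK stress kinases, was at 62.7, 75.2, 70.8 and 66.8 CPM in Sham mice 1 to 4. Vehicle mice 1 to 4 were at 165, 156, 103.1 and 93.4 CPM. No Vehicle value fell into the Sham range, and the mean rose from 68.9 ± 5.38 CPM (SD, n = 4) to 129.5 ± 36.4 (SD, n = 4). On the log2 scale this was 0.91 (SE 0.17, edgeR adjusted p = 0.00179).

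Junb (Entrez Gene 16477, chromosome 8 from 84976909 to 84978748), which can restrain Jun at shared sites, was at 99.9, 106.4, 109.4 and 112 CPM in Sham mice 1 to 4. Vehicle mice 1 to 4 were at 200, 232, 105 and 120 CPM. Here the groups overlapped, because Vehicle mouse 3 lay inside the Sham range. Its fitted value was 0.62 on the log2 scale (SE 0.22, edgeR adjusted p = 0.042). This call was the least stable of the 5. It was lost in 12 of 19 other settings, and without Vehicle mouse 2 the log2 fold change was 0.40 (edgeR adjusted p = 0.129).

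Jund (Entrez Gene 16478, chromosome 8 from 70697739 to 70700616), which is known for steady expression in resting cells, was at 366.6, 398, 421 and 435 CPM in Sham mice 1 to 4. Vehicle mice 1 to 4 were at 538, 436, 414 and 406 CPM. Vehicle mouse 1 was clearly the highest and the other 3 were near or inside the Sham range. Its fitted value was 0.15 on the log2 scale (SE 0.10, edgeR adjusted p = 0.244), which did not pass.

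**Figure D2:**
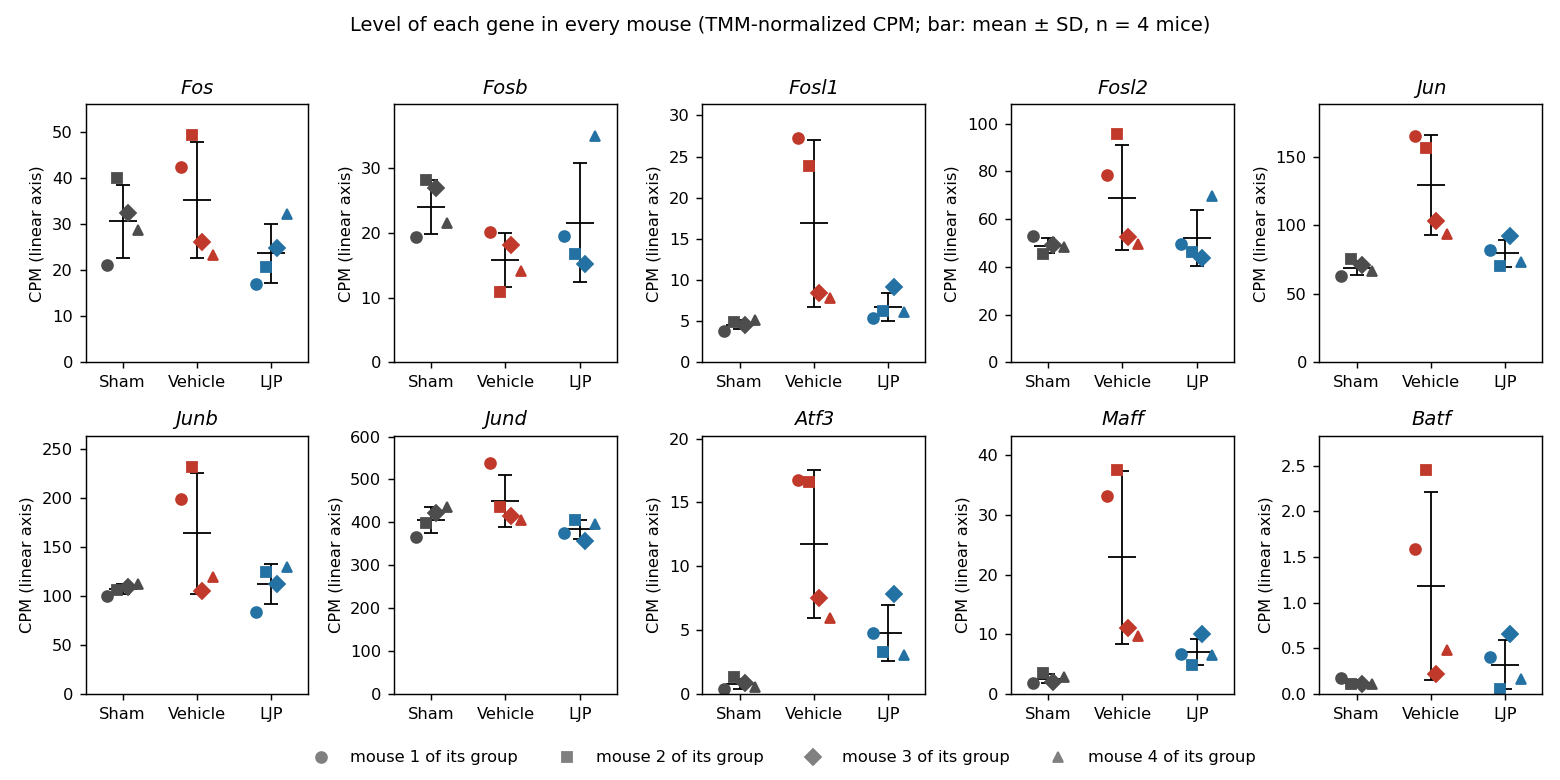
CPM of each of the 10 genes in every mouse on linear axes starting at 0, with grey, red and blue points for Sham, Vehicle and LJP, a marker shape for each mouse number and a bar for the mean ± SD of 4 mice. Atf3, Maff, Fosl1 and Jun separate Vehicle from Sham with Vehicle mice 1 and 2 on top, while Fosb is lower in 3 of 4 Vehicle mice than in any Sham mouse.

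Fos (Entrez Gene 14281, chromosome 12 from 85473890 to 85477274), the founding gene of the family, was at 21.2, 40.0, 32.4 and 28.6 CPM in Sham mice 1 to 4. Vehicle mice 1 to 4 were at 42.2, 49.2, 26.0 and 23.2 CPM. Mice 1 and 2 lay above the Sham range and mice 3 and 4 inside it. The log2 fold change was 0.20 (SE 0.27, edgeR adjusted p = 0.562), and it was -0.01 without Vehicle mouse 2.

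Fosl2 (Entrez Gene 14284, chromosome 5 from 32136472 to 32157840), which encodes FRA-2, showed the same split. It was at 52.9, 45.3, 49.1 and 48.1 CPM in Sham mice 1 to 4. Its level was 78.3 and 95.4 CPM in Vehicle mice 1 and 2 and 52.5 and 49.7 CPM in mice 3 and 4. Again only mice 1 and 2 exceeded the Sham range, and the log2 fold change of 0.50 (SE 0.20, edgeR adjusted p = 0.0636) missed the threshold. It passed without Vehicle mouse 3 at 0.61, without Vehicle mouse 4 at 0.63 and without LJP mouse 4 at 0.50, the largest edgeR adjusted p of these being 0.0476. With library-size scaling it passed too, at 0.58 (edgeR adjusted p = 0.0381).

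Fosb (Entrez Gene 14282, chromosome 7 from 19302696 to 19310118), an activity-dependent neuronal gene, had the only negative fitted value of the 9. Its level was 19.4, 28.2, 27.0 and 21.5 CPM in Sham mice 1 to 4. Vehicle mice 1 to 4 were at 20.1, 10.9, 18.1 and 14.1 CPM. In 3 of 4 Vehicle mice it lay below every Sham mouse, and mouse 2, the highest for Fos, was the lowest for Fosb. The log2 fold change was -0.60 (SE 0.26, edgeR adjusted p = 0.0831), which did not pass. It passed in 1 of 19 other settings, without LJP mouse 4, at -0.61 (edgeR adjusted p = 0.0286), where 15.7% of all genes tested were called lower.

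Batf (Entrez Gene 53314, chromosome 12 from 85686720 to 85709087) had 3, 2, 2 and 2 reads in Sham mice 1 to 4 and 35, 57, 4 and 9 reads in Vehicle mice 1 to 4. Each Vehicle mouse was above each Sham mouse, and nearly all Vehicle reads came from mice 1 and 2. The summed Vehicle counts were 10.4 times those of Sham mice per library size (exact 95% interval 5.26 to 23.3, which covers counting error only). On log2(CPM + 0.5) the difference was 1.21 (exact permutation test, two-sided, p = 0.0286, the smallest that 4 mice against 4 allow). Batf lies 209.4 kb from Fos on chromosome 12, with Gm32296, Gm32348 and the AP-1 repressor Jdp2 between them. Jdp2 gave a log2 fold change of -0.32 (SE 0.13, edgeR adjusted p = 0.0653).

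The second comparison asks whether LJP changed these genes after ischemia, and it shares the Vehicle mice with the first. No member passed the test. With edgeR, 0 of 9 were called, where 0.0228% of all genes tested were. At an unadjusted p below 0.05 there were 6 members, Fosl1, Jun, Junb, Jund, Atf3 and Maff, all lower in LJP mice, where 29.7% of all genes tested had such a p. DESeq2 called 4 members lower, namely Fosl1, Jun, Atf3 and Maff, where it called 9.25% of all genes lower. The same 4 passed the study's thresholds, as did 5.89% of all genes in that direction, and without the filter on low counts edgeR called Jun and Maff, where 1.80% of all genes were called lower. The fitted values of 8 of 9 members were negative, with a median of -0.58 against 0.00 over all genes, and Fosb was the exception. Jun and Jund, 2 of 9 members, were lower in every LJP mouse than in any Vehicle mouse, as were 5.91% of all genes.

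Maff was at 6.68, 4.86, 10.1 and 6.58 CPM in LJP mice 1 to 4, a mean of 7.06 ± 2.20 CPM (SD, n = 4). LJP mouse 3 reached the level of Vehicle mouse 4, so the groups overlapped. The log2 fold change was -1.70 (SE 0.42, edgeR adjusted p = 0.0678). Atf3 was at 4.77, 3.32, 7.83 and 3.07 CPM in LJP mice 1 to 4, and again mouse 3 reached into the Vehicle range. Its log2 fold change was -1.31 (SE 0.41, edgeR adjusted p = 0.0792).

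Fosl1 was at 5.45, 6.24, 9.19 and 6.13 CPM in LJP mice 1 to 4, and mouse 3 exceeded Vehicle mice 3 and 4. LJP minus Vehicle was -1.33 on the log2 scale (SE 0.37, edgeR adjusted p = 0.0687). Ccdc85b, whose reads overlap, gave -0.24 (edgeR adjusted p = 0.164). Jun was at 82.3, 70.2, 92.4 and 73.5 CPM, and its highest LJP mouse lay just below its lowest Vehicle mouse, at 93.4 CPM. Its log2 fold change was -0.70 (SE 0.17, edgeR adjusted p = 0.0678). Jund was at 375, 405, 357 and 396 CPM in LJP mice 1 to 4, and 405 lay just below the lowest Vehicle value of 406 CPM. The log2 fold change was -0.23 (SE 0.10, edgeR adjusted p = 0.147).

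The remaining members overlapped between the groups. Junb was at 83.2, 125, 112.3 and 129 CPM in LJP mice 1 to 4, with a log2 fold change of -0.55 (SE 0.22, edgeR adjusted p = 0.131). Fos was at 17.0, 20.6, 24.8 and 32.0 CPM, with -0.58 (SE 0.27, edgeR adjusted p = 0.169). Fosl2 was at 49.5, 46.3, 43.6 and 69.5 CPM, with -0.40 (SE 0.20, edgeR adjusted p = 0.192). In all 3 the values of Vehicle mice 3 and 4 lay inside the LJP range. Fosb was at 19.5, 16.7, 15.1 and 35.0 CPM, with a positive log2 fold change of 0.45 (SE 0.26, edgeR adjusted p = 0.258), which was 0.12 without LJP mouse 4. Batf had 9, 1, 12 and 3 reads in LJP mice 1 to 4, and the Vehicle counts were 3.97 times as high per library size (exact 95% interval 2.55 to 6.41, counting error only). The difference on log2(CPM + 0.5) was -0.87 (exact permutation test, two-sided, p = 0.171).

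Which Vehicle mice entered decided the count of calls in this comparison. Without Vehicle mouse 3, edgeR called 6 of the 10 members lower, Batf included, where 13.1% of all genes tested were called lower, and without Vehicle mouse 4 it called 4, where 8.38% were. Without Vehicle mouse 1 or mouse 2 the count was 0. Among LJP mice, mouse 3 was the highest for Fosl1, Jun, Atf3 and Maff, and it also had the highest monocyte and macrophage marker sum of the LJP mice, 107.4 CPM against 69.1, 28.1 and 31.1 CPM in mice 1, 2 and 4. LJP mouse 4 was the highest for Fos, Fosb, Fosl2 and Junb. Neutrophil markers were near 0 in all LJP mice. What part these cells had in the differences was not tested.

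**Figure D3:**
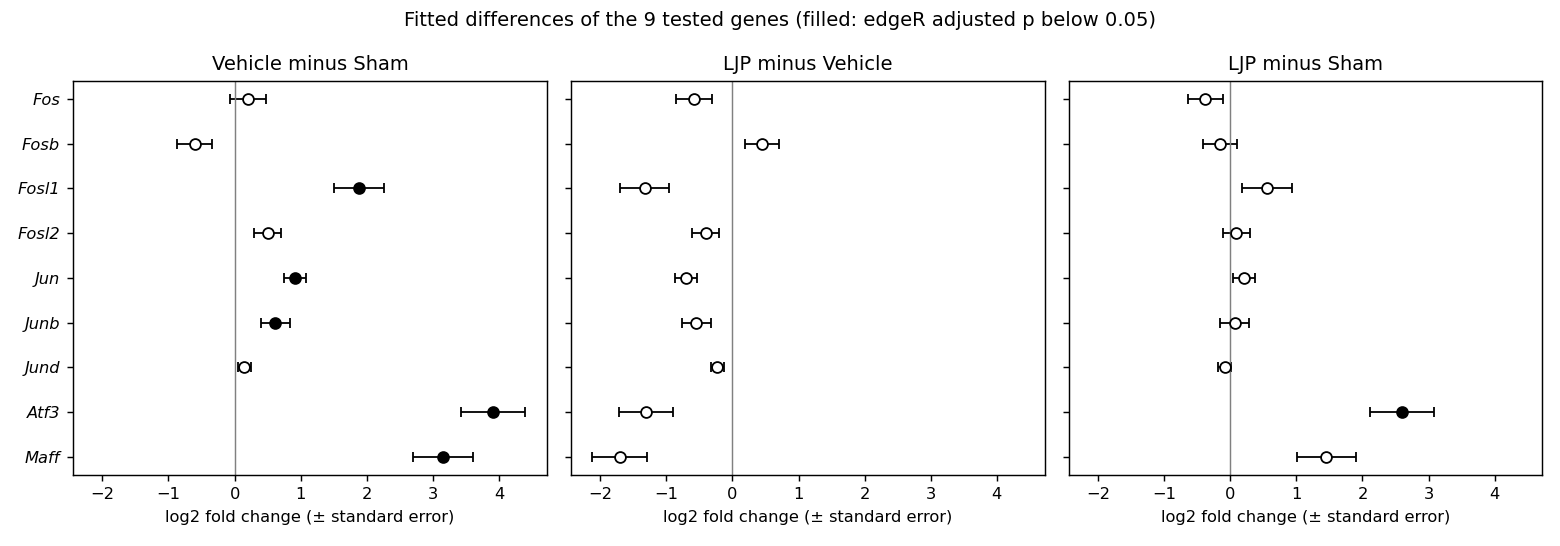
Fitted log2 fold change ± SE of the 9 tested genes in the 3 comparisons, with filled points where the edgeR adjusted p was below 0.05. In Vehicle minus Sham 5 points are filled, led by Atf3 at 3.91, none is filled in LJP minus Vehicle, and Atf3 at 2.60 is the only one in LJP minus Sham.

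The third comparison asks what separated LJP-treated ischemic brain from Sham, and it shares mice with both others. Atf3 alone passed, 1 of 9 members, where 3.85% of all genes tested were called higher. The summed microglia markers were at 499 to 840 CPM in LJP and 290.7 to 296.8 in Sham mice, and the astrocyte markers at 2511 to 3594 and 1323 to 1420, and their part in the result was not tested. Atf3 rose from 0.775 ± 0.416 CPM (SD, n = 4) in Sham to 4.75 ± 2.19 (SD, n = 4) in LJP mice, a log2 fold change of 2.60 (SE 0.49, edgeR adjusted p = 0.00846). No LJP mouse overlapped a Sham mouse. Side by side, the log2 difference of Atf3 from Sham was 3.91 in Vehicle and 2.60 in LJP mice. Leaving out any mouse kept this value between 2.25 and 2.97 and its adjusted p at or below 0.0393 with edgeR. DESeq2 and the study's thresholds added Maff, making 2, where 6.27% and 5.10% of all genes passed in that direction, and a fit of only the LJP and Sham mice called Atf3, Maff and Fosl1, where 12.1% did.

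Maff was also higher in every LJP mouse than in any Sham mouse, with a log2 fold change of 1.45 (SE 0.45, edgeR adjusted p = 0.0899). Fosl1 separated in the same way at 0.56 (SE 0.38, edgeR adjusted p = 0.472). Thus 3 of 9 members did not overlap in the higher direction, where 12.9% of all genes did. The other 6 fitted values lay between -0.37 for Fos and 0.21 for Jun. Jun, whose mean in LJP mice was 79.6 ± 9.93 CPM (SD, n = 4) against 68.9 ± 5.38 in Sham, did not pass (edgeR adjusted p = 0.557). Batf counts were 2.61 times those of Sham per library size (exact 95% interval 1.18 to 6.36, counting error only), with a difference of 0.34 on log2(CPM + 0.5) (exact permutation test, two-sided, p = 0.314).

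Levels of different genes can be set side by side only per transcript length, for which CPM was divided by the length given in the deposited table. In Sham mice the order ran from Jund at 140.8 ± 10.4 CPM per kilobase (SD, n = 4), through Junb at 58.1 ± 2.89 and Jun at 21.6 ± 1.69, to Fos at 14.5 ± 3.73, Fosl2 at 8.33 ± 0.532, Fosb at 6.24 ± 1.097 and Fosl1 at 2.69 ± 0.321. Each of these 7 was separated from its neighbour in every mouse. Maff, Atf3 and Batf followed at 0.670 CPM per kilobase or less, and each overlapped its neighbour. In Vehicle mice the first 3 places were unchanged and separate, but from Fos down to Fosb each gene overlapped its neighbour. Atf3, at 5.93 ± 2.93 CPM per kilobase, and Maff, at 4.47 ± 2.84, then stood ahead of Fosb at 4.10 ± 1.07 on average. In LJP mice Fosb, at 5.61 ± 2.37, stood again before Fosl1, Atf3 and Maff on average, and its range overlapped those of Fosl1 and Atf3 but not that of Maff. The length of Jund and Maff in the table differs from the annotated exons, so their level per kilobase depends on the length used.

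Shares of the Fos and Jun family transcripts were then computed within each mouse from these per-length levels. Jund held 55.8% ± 1.42 (SD, n = 4) of the 7-gene sum in Sham, 48.5% ± 6.98 in Vehicle and 53.6% ± 3.24 in LJP mice. Jun held 8.57% ± 0.510 in Sham, 12.3% ± 0.808 in Vehicle and 10.1% ± 1.82 in LJP mice, and its Vehicle range of 11.1% to 12.9% lay above the Sham range of 7.95% to 9.20%. Within the Fos family, Fosb took a smaller and Fosl1 a larger share in every Vehicle mouse than in any Sham mouse. Fosb held 2.12% to 2.85% in Sham and 0.737% to 1.78% in Vehicle mice, and Fosl1 held 0.995% to 1.14% in Sham and 1.75% to 3.99% in Vehicle mice. The whole Fos family stayed within 10.01% to 14.7% in all 12 mice. The 7-gene sum was 402 and 383 CPM per kilobase in Vehicle mice 1 and 2 and 264.2 and 263.3 in mice 3 and 4. Mouse 3 thus lay just above the Sham range of 227.7 to 263.5 and mouse 4 just inside it. The shares and sums use the lengths of the table, which gives Jund 2878 bases where its annotated exons hold 1668, so with the annotated length the share of Jund would be larger and those of the others smaller.

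**Figure D4:**
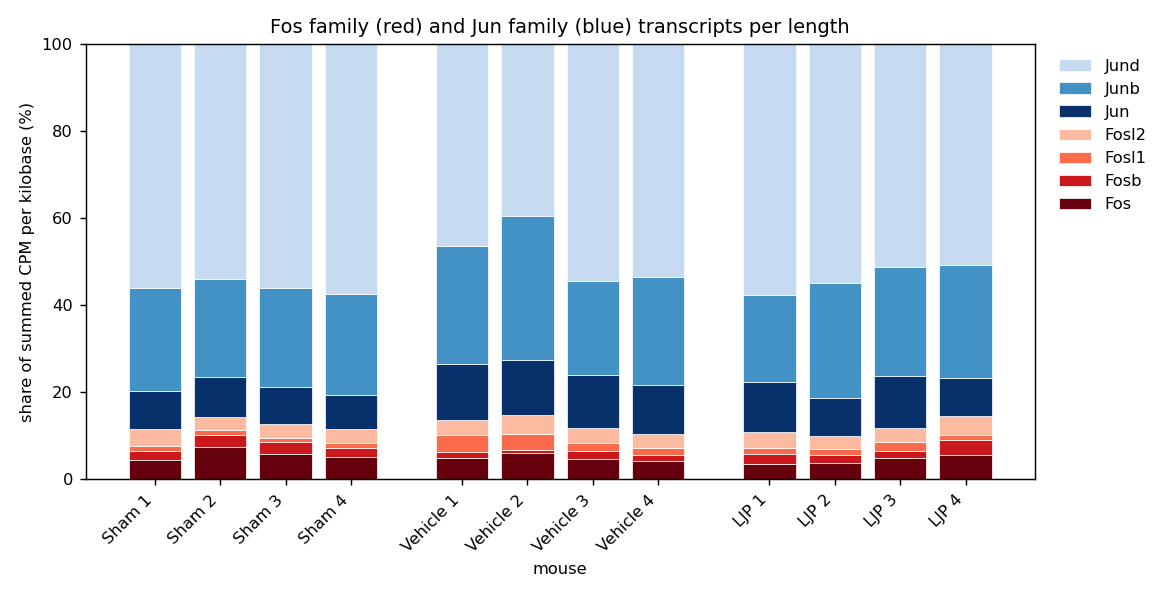
Stacked bars of the share of each Fos family gene (reds) and Jun family gene (blues) in the summed CPM per kilobase of these 7 genes, 1 bar per mouse, from 0 to 100%. Jund is the largest block in every bar, the Jun block is wider in the Vehicle bars than in the Sham bars, and the Fosl1 block is widest in Vehicle mice 1 and 2.

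The factors that surround AP-1 were read from lists written from general knowledge. Among 30 tested relatives of the leucine zipper class, 13 were called higher and 4 lower in Vehicle than in Sham mice, where 22.7% of all genes tested were called higher and 17.3% lower, and the median log2 fold change was 0.17. Among those with the smallest p-values were Cebpa, a myeloid differentiation factor (1.97, SE 0.19), Cebpd, an acute-phase factor (4.15, SE 0.51), and Mafa, which fell (-1.90, SE 0.28). Their edgeR adjusted p-values lay between 6.92e-05 and 0.000504. Cebpa is also a gene of myeloid cells, whose markers were higher in Vehicle mice, and that contribution was not tested. The Maff relative Mafk (log2 fold change 1.70, edgeR adjusted p = 0.00127) and its partners Nfe2l2 (1.32, edgeR adjusted p = 0.00232) and Bach1 (1.16, edgeR adjusted p = 0.0018) rose as well. Their close relatives Mafg (-0.02), Nfe2l1 (-0.10), Nfe2l3 (0.06) and Bach2 (-0.29) did not pass, and these 7 genes were picked after their values were seen.

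The kinases and factors that switch AP-1 on did not move one way. Of 33 tested genes of the JNK, ERK and serum response factor arm, 13 were called higher and 12 lower in Vehicle mice, against 22.7% and 17.3% of all genes, and the median log2 fold change was -0.13. The 4 with the smallest p-values were Rps6ka5, a histone kinase that acts on immediate early genes and which fell (-0.95, SE 0.10), Rps6ka1 (1.32, SE 0.16), Mapk3, which encodes ERK1 (0.58, SE 0.08), and Elk3, a partner of serum response factor (2.33, SE 0.38). The largest adjusted p of these 4 was 0.000851 with edgeR. The 3 JNK genes were all called lower, namely Mapk8 (-0.68, edgeR adjusted p = 0.00182), Mapk9 (-0.49, edgeR adjusted p = 0.00371) and Mapk10 (-0.50, edgeR adjusted p = 0.0292), and they were picked here after their values were seen.

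Of 26 other immediate early genes tested, 8 were called higher and 7 lower, against 22.7% and 17.3% of all genes, and the median log2 fold change was -0.05. The 4 with the smallest p-values all rose, namely Myc (2.22, SE 0.38), the mRNA decay factor Zfp36 (2.71, SE 0.48), Ier3 (2.32, SE 0.43) and Klf6 (1.24, SE 0.27), with edgeR adjusted p-values from 0.00112 to 0.00375. The 7 called lower were Egr1, Egr2, Egr3, Egr4, Homer1, Nr4a3 and Dusp6. Egr1, for example, gave -0.91 (SE 0.24, edgeR adjusted p = 0.00942). Nr4a1 (-0.92, edgeR adjusted p = 0.0565), Nr4a2 (-1.38, edgeR adjusted p = 0.0654), Arc (-0.94, edgeR adjusted p = 0.133) and Npas4 (-0.73, edgeR adjusted p = 0.279) did not pass. The 7 called lower and these 4 were chosen after their values were seen. The neuron and striatal marker sums were lower in Vehicle mice too, and their part was not tested.

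Of 32 genes commonly cited as AP-1 targets, 6 had too few counts to be tested. Some of the 26 tested entered only through the ischemic mice, such as Mmp3 and Cxcl1 with no read in Sham mice and Mmp12 with 0 to 3, so that their calls follow in part from the filter. Of these 26, 21 were called higher and 3 lower, against 22.7% and 17.3% of all genes, with a median log2 fold change of 4.39, which was also the median with the 2 genes that had no read in Sham mice set to their lower bound. Cd44, a hyaluronan receptor (4.82, SE 0.39), the galectin Lgals3 (6.22, SE 0.52), the intermediate filament gene Vim (4.88, SE 0.41) and the cyclin Ccnd1 (1.44, SE 0.17) had the smallest p-values, with edgeR adjusted p-values from 4.62e-05 to 0.000159. Fst, Vegfa and Nefl were the 3 called lower. Many genes of this list are made by the infiltrating and glial cells whose markers were higher too, and their part in the result was not tested.

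Between LJP and Vehicle mice edgeR called 0 genes in all 4 of these lists. At an unadjusted p below 0.05 there were 19 of 30 relatives, 22 of 33 upstream genes, 18 of 26 immediate early genes and 20 of 26 targets, where 29.7% of all genes tested had such a p. The median log2 fold changes were -0.20, 0.02, -0.16 and -1.47, in that order, beside -0.58 for the members and 0.00 for all genes. Targets such as Mmp3, Cxcl1 and Il11 reached the counts needed for the test mainly in Vehicle mice. The count and median of the targets, and the values of such genes, therefore follow in part from the filter. The relatives with the smallest p-values were Cebpd (-1.83), Cebpb (-1.42), Mafk (-1.08) and Mafa (0.96). Those upstream were Rps6ka5 (0.50), Elk3 (-1.48), Map3k8 (-2.06) and Gadd45g (-1.34). Among immediate early genes they were Ier3 (-1.82), Ier2 (-1.25), Klf2 (-1.46) and Zfp36 (-1.72), and among targets Hmox1 (-3.23), Il11 (-4.41), Plaur (-3.06) and Mmp9 (-3.69). The adjusted p of these 16 genes lay between 0.0678 and 0.0711 with edgeR. Against Sham, LJP mice had 3 relatives, 2 upstream genes, 0 immediate early genes and 10 targets called higher and 0, 1, 0 and 0 called lower, where 3.85% and 0.900% of all genes were. For the immediate early genes, 4 of 26 had an unadjusted p below 0.05 in that comparison, as 18.8% of all genes did.

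**Figure D5:**
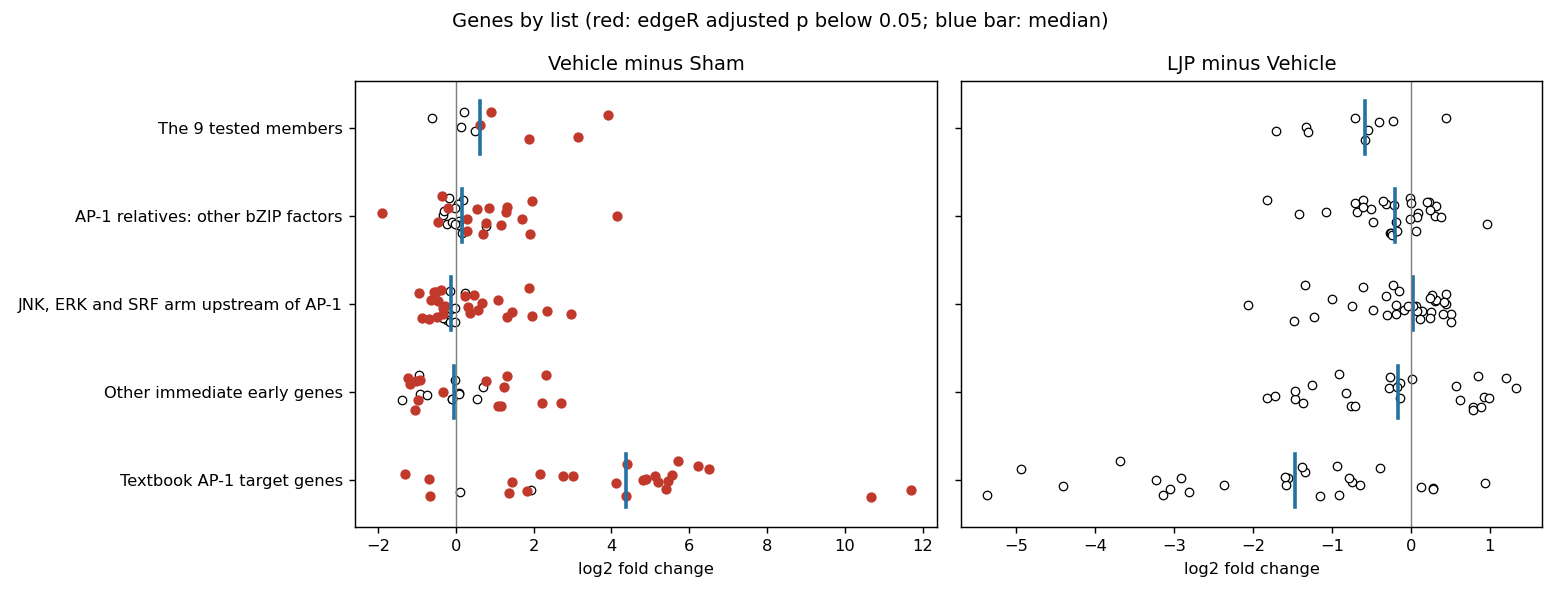
Log2 fold change of each tested gene in 5 lists, Vehicle minus Sham on the left and LJP minus Vehicle on the right, with red points for an edgeR adjusted p below 0.05 and a blue bar at the median of each list. On the left the target genes reach furthest, with a median of 4.39 (the 2 points at the far right are Mmp3 and Cxcl1, which had no read in Sham mice, so their fitted size is no measure), and on the right no point is red.

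For each tested member, the genes with the most similar pattern were found by the root-mean-square difference of centred log2 CPM over the 12 mice, a measure in which 0 means the same pattern. Nearest to Fosl1 were Gadd45g at 0.12, Cebpb at 0.20 and Odc1 at 0.21. Gadd45g, a stress gene of the JNK, ERK and serum response factor list, was at 71.7, 54.9, 21.4 and 22.4 CPM in Vehicle mice 1 to 4. Sham mice were at 10.4 to 11.9 CPM, and the split of the Vehicle mice was the same as in Fosl1. Nearest to Jun were Amotl1 at 0.09, Ehd1 at 0.09 and Nhsl1 at 0.10. Atf3 had its nearest patterns in Ch25h at 0.33, Lrrc25 at 0.34 and Slc15a3 at 0.36, and Maff in Rhbdf2 at 0.21, Tnfrsf1a at 0.25 and Alox5ap at 0.26. Ch25h, a cholesterol hydroxylase, stood at 14.8, 18.9, 6.35 and 6.14 CPM in Vehicle mice 1 to 4 and at 0.288 to 0.708 CPM in Sham mice.

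The other members had other neighbours. Junb was nearest to Mir22hg at 0.12, Gnl3 and Zdhhc4 at 0.14 each, and Fosl2 to Zdhhc4 at 0.13, Trp53i11 and Ctdp1 at 0.15 each. Jund, which varied least, was near to Ubb at 0.05 and Pgs1 at 0.06. Fos was nearest to Lsm5, Tsc22d3 and 4930577N17Rik at 0.22 to 0.24, and Fosb to Gm1604a, Bex1 and Inhba at 0.24 to 0.25. Between members the closest pair was Fosl2 and Junb at 0.21, followed by Jun and Junb at 0.27, Fosl2 and Jund at 0.28 and Fos and Junb at 0.29. Fosb was far from every other member, with Jund nearest at 0.47, and Atf3 was nearest to Maff at 0.58. For every tested member, some genes that are not members lay nearer than its nearest member. They numbered 30 for Fos, 69 for Atf3, 137 for Junb, 233 for Fosl2 and 251 for Maff. For Fosl1 there were 503, for Jun 1192, for Fosb 6873 and for Jund 7079. The distances of Jund (0.28) and Fosb (0.47) to their nearest members exceeded their own root-mean-square spread about the mean, 0.15 and 0.44. All 12 points of each pattern share their libraries and groups, so these distances are a description.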

How the data were processed

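The authors deposited raw counts of reads per gene and mouse, without normalization, and counts are the only unit used. The labels name featureCounts, DESeq2 and the builds GRCm39 and mm10, while member positions in the table equal those of GRCm38. Strand setting and the handling of shared reads are not given in the sources used here. The table was read into R 4.3.3 and tested by edgeR 4.0.16 (filterByExpr, TMM, quasi-likelihood test, all 12 mice in 1 fit), and p-values were adjusted over 17558 genes. Log2 CPM used a prior count of 2. Batf, removed by the filter, was compared by an exact permutation test over mice on log2(CPM + 0.5). DESeq2 1.42.0, RLE or library-size scaling, no filter, 2-group fits, a replicate block, the study's thresholds (p below 0.01, absolute log2 fold change over 0.58) and leaving out each mouse were alternatives. The procedure was tested on simulated data. Figures used matplotlib 3.10.9. Promoters were searched in Python 3.11.15.

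The members and lists were chosen with earlier results of these data known. Named were all members, their 3 nearest genes, and in each pathway list the 4 genes with the smallest p in the first and second comparisons, with other list genes named as chosen later. Some genes that this rule names are not reported here. The labels give separate mice per group and no more, so p-values measure the spread between these samples. Pairs of libraries within a group differed by more than counting error, since chi-square over degrees of freedom was 2.54 or more. This cannot show whether libraries came from the same animal. T and B cell, oligodendrocyte, astrocyte, microglia and choroid plexus markers were also summed. Cd4 made nearly all of the T and B cell sum, at 19.5 to 25.9 CPM in Sham, 4.00 to 6.03 in Vehicle and 7.02 to 12.9 in LJP mice. Oligodendrocyte markers lay at 3625 to 4804 CPM in all mice. Astrocyte markers summed to 1323 to 1420 CPM in Sham, 2766 to 4179 in Vehicle and 2511 to 3594 in LJP mice. Microglia markers summed to 290.7 to 296.8 CPM in Sham, 410.7 to 819.2 in Vehicle and 499 to 840 in LJP mice. Protein sequences were not used here.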

Additional observations from a re-analysis of the deposited data

Results flagged for a closer look

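Batf in the Sham group had a mouse far from the other 3. Sham mouse 1 was at 0.173 CPM and the other 3 mice at 0.104 to 0.110 CPM, so that the gap to the nearest of them was 0.914 of the whole range, above the limit of Dixon's test for 4 values. These levels rest on 3 reads in mouse 1 and 2 reads in each of the others. Of 30 sets of 4 mice checked, this was the 1 found, and chance alone gives about 1.5.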

How the results depend on the processing

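The count of members higher in Vehicle than in Sham mice was 5 and lay between 4 and 7 in the 19 other settings. The 7 arose without Vehicle mouse 3 or mouse 4, where Batf also entered the test and 25.3% and 23.9% of all genes were called higher. The count called lower in LJP than in Vehicle mice was 0, and it became 4 with DESeq2, 2 without the filter on low counts and 4 at the study's thresholds, with 0 to 6 when single mice were left out. The count called higher in LJP than in Sham mice was 1, and it became 2 with DESeq2, 3 in a fit of only the 2 groups and 2 at the study's thresholds, with 1 to 2 when single mice were left out, the 2 arising without Vehicle mouse 2, where 7.77% of all genes were called higher. Leaving out single mice moved the Batf difference between Vehicle and Sham between 0.87 and 1.55, and the exact permutation p rose to 0.0857 without any 1 of the Sham mice. Directions turned in 3 values: Fos in Vehicle against Sham was -0.008 without Vehicle mouse 2 (-0.008 to 0.359 over all mice left out), and Fosl2 and Junb in LJP against Sham were -0.074 and -0.005 without LJP mouse 4 (-0.074 to 0.172 and -0.005 to 0.189). The cause was not tested. No scaling moved the median of all genes by more than 0.077.

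The labels number the mice 1 to 4 in each group. The deviations of same-numbered mice from their group means had correlations of -0.32 to 0.11. With 4 mice per group this cannot exclude a shared handling by number, and the labels give no pairing. With the replicate block, 4 members were called in Vehicle against Sham mice, Junb being lost at 0.58 (edgeR adjusted p = 0.075), 0 in LJP against Vehicle and 1 in LJP against Sham mice. At about 0.129 to 0.173 CPM for 3 reads, depth limits Batf most.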
